A study of Mus musculus with 42 samples.

Results

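The metallothioneins are small, cysteine-rich proteins that bind zinc, copper and cadmium in the cell. Mt1 and Mt2 are made in most tissues and are switched on by metals through the transcription factor Mtf1, which binds metal response elements in their promoters, and by glucocorticoids and stress. In liver they are best known as genes of low resting level and large inducible range. Mt3 is known from the brain, and Mt4 from the differentiating layers of stratified squamous epithelium, the kind of epithelium that lines the mouse forestomach.

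All 4 metallothionein genes of the mouse set, Mt1, Mt2, Mt3 and Mt4, were followed here, chosen by gene symbol and each represented by 1 probe. They are 4 of the 20018 genes that could be named on the array and 4 of its 55681 probes. Levels were measured on 42 two-colour arrays of lung, liver and forestomach from 15 male Muta™Mouse animals of about 11 weeks, a strain that carries a bacterial lacZ transgene for scoring mutations. For 28 days the mice received by gavage the polycyclic aromatic hydrocarbon benzo(k)fluoranthene (BkF) in olive oil, and they were sampled 72 hours later. The vehicle control D0 received olive oil alone. The daily dose per kg of body weight was 25 mg in the low group (D1), 50 mg in the medium group (D2) and 100 mg in the high group (D3). Numbers of mice from D0 to D3 were 4, 3, 4 and 4 for lung, 4, 2, 3 and 4 for liver and 4, 3, 4 and 3 for forestomach. Every group shares the strain, the sex, the transgene and the oil. RNA came from a piece of tissue and not from sorted cells, so a change in cell make-up and a change of RNA per cell cannot be told apart.

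Each value is a log2 ratio of the tissue RNA (Cy5) over a universal mouse reference RNA pooled from cell lines (Cy3). A ratio can be compared between tissues and mice for the same probe, but not between probes. Mt1, Mt2 and Mt3 were well above background on every array. Mt4 was well above background on all 14 forestomach arrays, on 5 of 15 lung arrays and on 1 of 13 liver arrays, which was too few for it to be tested in liver. No member spot was saturated. Between 28.1% and 60% of all probes were well above background on an array.

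Several samples held RNA of other tissues, judged by the mean log2 ratio of marker genes. The lung of D2 mouse 12 had a mean of 5.22 over 8 skeletal muscle markers, against -0.66 to -0.27 in the other 14 lungs, and of 3.57 over 8 stratified squamous markers, against -0.19 to 0.06. Among the squamous markers of that lung, Trp63 went the other way, at -0.10 against 0.09 to 0.66. Its 4 brown fat markers had a mean of 3.63, against 0.31 to 1.70. The lung of D1 mouse 7 had a mean of 3.95 over 8 glandular stomach markers, against 0.09 to 1.22 in the others. The liver of D3 mouse 17 had a skeletal muscle mean of 4.38, against -0.72 to -0.48 in the other 12 livers, and a white fat mean of 2.81, against -0.03 to 1.56. In forestomach the glandular stomach mean was above 3 on 9 of 14 arrays, which were 2 of 4 at D0, 3 of 3 at D1, 3 of 4 at D2 and 1 of 3 at D3. The liver marker mean was 2.20 to 4.35 in 8 of these 9 and 0.19 to 0.67 in the other 6 forestomachs. The forestomach of D3 mouse 16 had a white fat mean of 4.41, against -0.06 to 2.58 in the other 13. The markers of the labelled tissue were high throughout, with means of 5.93 to 6.97 for 6 lung markers in lungs, 7.47 to 8.20 for 6 liver markers in livers and 3.34 to 4.56 for the squamous markers in forestomachs. Mouse 12 had the lowest of these means in lung, where the others began at 6.13, and in forestomach, where they began at 3.42. In its lung 4 of the 6 lung markers were below every other lung.

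The 4 genes lie together on mouse chromosome 8, in the order Mt4, Mt3, Mt2, Mt1, within 43.1 kilobases that hold only 1 other annotated gene. In the RefSeq annotation of build GRCm38.p6, Mt4 spans chr8:94137204-94139031, Mt3 chr8:94152607-94154148, Mt2 chr8:94172618-94173567 and Mt1 chr8:94178883-94180327. The window before the start of Mt2 (chr8:94172368-94172617, plus strand) and that of Mt4 (chr8:94136954-94137203, plus strand) are shown because Mt1 and Mt2 had their highest values in the same mouse in every tissue, whereas Mt4 was high in forestomach. For Mt1 the 30 bases that end at its RefSeq promoter start are shown (chr8:94179059-94179088, plus strand), since a second annotated Mt1 transcript begins further upstream and covers most of that window. Capitals mark matches to the metal response core (TGCACNC or TGCGCNC) or to the core bound by the aryl hydrocarbon receptor (GCGTG), the receptor that polycyclic aromatic hydrocarbons activate, on either strand.
Mt1: cccgctgTGCACACtggcgctccagggagc
Mt2: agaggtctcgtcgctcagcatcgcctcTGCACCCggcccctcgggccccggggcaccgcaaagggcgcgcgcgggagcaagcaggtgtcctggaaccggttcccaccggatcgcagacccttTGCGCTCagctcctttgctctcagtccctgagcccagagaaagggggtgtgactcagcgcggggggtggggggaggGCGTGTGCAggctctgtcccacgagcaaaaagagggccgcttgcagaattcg
Mt4: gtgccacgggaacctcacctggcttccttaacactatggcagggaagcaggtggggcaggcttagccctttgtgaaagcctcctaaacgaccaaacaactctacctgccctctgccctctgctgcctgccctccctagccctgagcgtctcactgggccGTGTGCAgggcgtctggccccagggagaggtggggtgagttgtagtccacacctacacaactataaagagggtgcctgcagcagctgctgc

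The metal response core was found 3 times in the 250 bases before Mt2, 1 time before Mt1, 1 time before Mt4 and 0 times before Mt3. At least 1 match was present in 21.4% of the 32851 promoter windows of the same length in the RefSeq table, and 3 or more in 1.26%. One of the Mt2 matches, on the minus strand 50 to 44 bases before the start, shares bases with the only aryl hydrocarbon receptor core of that window. Mt1 had 1 receptor core in its window and Mt3 and Mt4 had 0, against 28.2% of all windows with at least 1. The antioxidant response core (TGACNNNGC) was found 1 time before Mt2 and 0 times before the others, and 10.2% of windows held it. The core bound by the glucocorticoid receptor (ACANNNTGT) was found 1 time before Mt1 and 0 times before the others, against 5.8% of windows. Most of the Mt1 window lies within the longer Mt1 transcript named above, so its counts do not describe the sequence ahead of that transcript. These are matches of letters within the given windows and say nothing about binding.

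The level of each gene without BkF was compared between the vehicle groups of the 3 tissues (n = 4 each). Forestomach had the highest mean log2 ratio of every member. For Mt3 its difference from liver was not called and turned sign with the ratios of the scanner software. Limma called 1 of 4 members between lung and liver, 3 of 4 between lung and forestomach and 3 of 4 between liver and forestomach. A call needed a fold of 1.5 or more besides an adjusted p of 0.05 or less. Of all tested probes, 40.2%, 29.9% and 33% were called in these comparisons, so a call is common between tissues. Lung and forestomach shared slides while liver was hybridised on other slides and read with another software version, so liver and slide cannot be told apart.

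Mt4, the squamous member, stood at 6.42, 6.90, 6.58 and 6.83 in the forestomachs of vehicle mice 1 to 4. In their lungs it stood at -0.24, -0.17, -0.51 and -0.47, and in their livers at -0.24, -0.23, 0.39 and -0.14. The forestomach values lay far above all others, and lungs and livers were at the edge of detection, with the sample channel well above background on 2 of 4 vehicle lungs and on 0 of 4 vehicle livers. The median sample-channel intensity of the spot was 8274 to 31472.5 in vehicle forestomachs, 66 to 122 in lungs and 67 to 88 in livers. Mt4 is among the members called against forestomach in both comparisons, but it entered the one with liver only through forestomach, and the lung and liver spots were at the edge of detection. The calls therefore add nothing to these levels, and no size of the difference is given.

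Mt1, one of the inducible members, stood at -0.39, -0.31, 0.45 and -0.27 in the vehicle forestomachs, at -1.83, -1.31, -1.82 and -1.69 in the lungs and at -3.91, -4.05, -4.22 and -3.45 in the livers. The 3 tissues did not overlap, in the order forestomach, lung, liver, but the share of all probes so separated was not counted. Differences between vehicle tissues were common. The share of all probes with an unadjusted limma p under 0.05 was 59.3% for lung against liver, 50.7% for lung against forestomach and 50.5% for liver against forestomach. Lung was above liver by 2.25 (SE 0.72, limma adjusted p 0.0080), and liver was below forestomach by a log2 difference of -3.78 (SE 0.72, limma adjusted p 3.8e-05). Lung and forestomach differed by -1.53 (SE 0.72), which missed the threshold (limma adjusted p 0.083). The lung to liver call was lost with the ratios made by the scanner software (1.67, limma adjusted p 0.075).

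Mt2, which like Mt1 buffers zinc, stood at 0.39, 0.36, 0.91 and 1.05 in the vehicle forestomachs, at -3.49, -2.71, -3.32 and -3.13 in the lungs and at -3.88, -4.16, -4.08 and -3.64 in the livers. Forestomach lay above every lung and liver by more than 3 log2 units. Its difference was -3.84 from lung (SE 0.79, limma adjusted p 1.4e-04) and -4.62 from liver (SE 0.79, limma adjusted p 6.9e-06), written as the other tissue minus forestomach. Lung and liver differed by 0.78 (SE 0.79), which was not called (limma adjusted p 0.43).

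Mt3 had a narrower spread between tissues. Its vehicle means were 0.67 ± 0.16 in lung, 1.14 ± 0.10 in liver and 1.37 ± 0.30 in forestomach (SD, n = 4). Lung was below forestomach by a log2 difference of -0.70 (SE 0.14, limma adjusted p 1.3e-04). The difference of -0.46 between lung and liver had an adjusted p of 0.0057 in limma but was under 1.5-fold. It was -1.21 and called with the ratios of the scanner software (limma adjusted p 3.1e-05), and turned to 0.074 in the sample channel alone, so its size and direction are not settled. That of -0.23 between liver and forestomach was not called (limma adjusted p 0.19). The sample-channel intensity of Mt3 was only 154.5 to 499 on the 42 arrays, so its log ratio was read from a dim spot.

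Whether BkF changed the metallothioneins was asked in each tissue by comparing every dose with the vehicle group, whose mice are shared by the 3 comparisons. Limma called no member in any of the 9 comparisons, over 33 tests of a member in a tissue and dose. The share of all probes called was 0% at D1, 0.0153% at D2 and 0.0336% at D3 in lung, 0%, 0.0427% and 0.0525% in liver, and 0% at all 3 doses in forestomach, so few calls were to be had. Of the 33 tests, 2 had an unadjusted p under 0.05, namely Mt1 in liver at D2 (0.040) and Mt1 in forestomach at D1 (0.025). In these 2 comparisons 3262 of 30460 and 3070 of 25305 probes had an unadjusted p under 0.05, so such a p was common there. No member had a trend with dose in any tissue, against 0.0367%, 0% and 0% of all probes in lung, liver and forestomach. No D3 effect on a member differed between 2 tissues, with 0.0266% of all probes called for lung against liver, 0.0106% for lung against forestomach and 0.00531% for liver against forestomach.

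**Figure D1:**
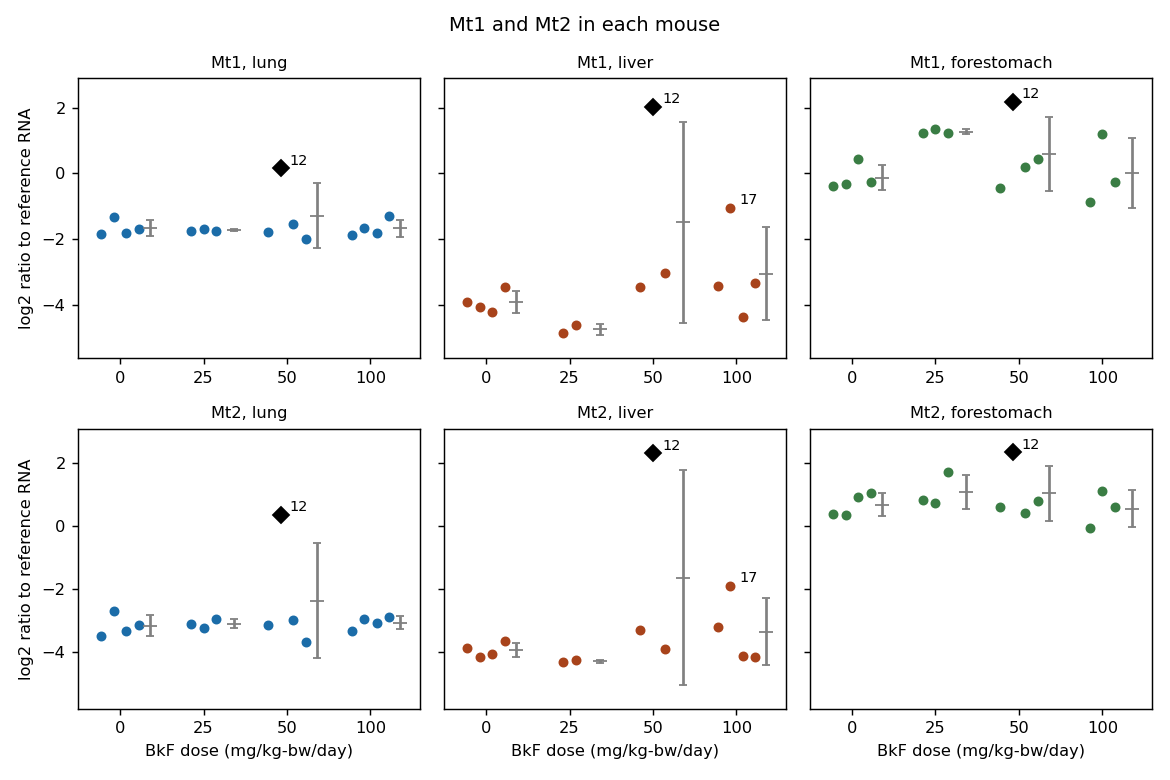
Log2 ratio of Mt1 (top) and Mt2 (bottom) over the reference RNA in each mouse by BkF dose in mg/kg-bw/day, in lung, liver and forestomach. Each point is 1 mouse, the black diamond is D2 mouse 12, numbers name single mice, and grey bars give the group mean and SD. Mouse 12 is the highest mouse in all 6 panels, at 2.02 for Mt1 and 2.30 for Mt2 in liver.

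In liver, Mt1 and Mt2 were the most variable of the members. At D1 Mt1 stood at -4.86 and -4.62 in mice 8 and 9, below all 4 vehicle livers, and with only 2 mice 11.3% of all probes had D1 livers that did not overlap the vehicle livers. At D2 it stood at -3.46, 2.02 and -3.02 in mice 11, 12 and 13, and at D3 at -3.43, -1.04, -4.37 and -3.34 in mice 16, 17, 19 and 20. Mice 12 and 17 were far above the rest, while the other treated livers lay within about 1 log2 unit of the vehicle livers. The changes in the mean were -0.83 (SE 1.20), 2.42 (SE 1.06) and 0.86 (SE 0.98) at D1, D2 and D3, with limma adjusted p of 1.0, 0.44 and 0.87.

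Mt2 followed the same mice in liver. It stood at -4.33 and -4.27 at D1, at -3.31, 2.30 and -3.91 in mice 11, 12 and 13, and at -3.22, -1.91, -4.14 and -4.16 in mice 16, 17, 19 and 20. Mouse 12 was again the highest and mouse 17 the next. The changes were -0.36 (SE 1.25), 2.30 (SE 1.1) and 0.58 (SE 1.02) with limma adjusted p of 1.0, 0.48 and 0.93. Mouse 12 decided the D2 means: without it the change was 0.67 for Mt1 and 0.33 for Mt2. Mouse 17 decided those at D3, which were 0.19 for Mt1 and 0.098 for Mt2 without it. The liver of mouse 17 is the one with the high skeletal muscle and white fat means given above. Mouse 12, higher for both genes, had a skeletal muscle mean of -0.72 and a white fat mean of 0.27 in liver. Mouse 20 had a white fat mean of 1.56 with Mt1 at -3.34 and Mt2 at -4.16. The part of other tissue in the Mt1 and Mt2 values was not tested.

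In forestomach, Mt1 was higher in all 3 D1 mice, at 1.23, 1.34 and 1.21 in mice 7, 8 and 9, than in any vehicle mouse. The groups did not overlap, which was also so for 14.8% of all probes in that comparison, 5.62% with D1 higher, and 0% of probes were called there. At D2 it stood at -0.45, 2.18, 0.20 and 0.45 in mice 11, 12, 13 and 15, and at D3 at -0.88, 1.19 and -0.27 in mice 16, 17 and 20, and these groups overlapped the vehicle mice. The changes were 1.39 (SE 0.55), 0.73 (SE 0.51) and 0.14 (SE 0.55), with limma adjusted p of 0.36, 0.79 and 1.0. In a fit on the D0 and D1 groups alone, which leaves out the wide spread of the other doses, the D1 change passed (SE 0.22, limma adjusted p 0.031), and 333 probes were called there. All 3 D1 forestomachs were among the 9 with glandular stomach RNA. On those 9 arrays alone, with 2 vehicle mice left, the change was 1.20 (SE 0.52, limma adjusted p 0.41), and with the glandular mean as a covariate it was 0.78 (SE 0.48, limma adjusted p 0.80).

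Mt2 in forestomach stood at 0.81, 0.74 and 1.69 at D1, at 0.59, 2.33, 0.42 and 0.77 at D2 and at -0.07, 1.11 and 0.59 at D3, in the mouse order used for Mt1. Mouse 12 was the highest and every treated group overlapped the vehicle mice. The changes were 0.41 (SE 0.43), 0.35 (SE 0.40) and -0.13 (SE 0.43), with limma adjusted p of 0.72, 0.89 and 1.0. Without mouse 12 the D2 change was 0.20 for Mt1 and -0.08 for Mt2.

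In lung, Mt1 was narrow apart from 1 mouse. It stood at -1.76, -1.69 and -1.74 in mice 7, 8 and 9 at D1, at -1.80, 0.16, -1.53 and -2.00 in mice 11, 12, 13 and 15 at D2, and at -1.88, -1.68, -1.80 and -1.30 in mice 16, 17, 19 and 20 at D3. Mouse 12 stood far above the vehicle range, and the others lay within it or close to its ends. The changes were -0.07 (SE 0.37), 0.37 (SE 0.34) and -0.0016 (SE 0.34), with limma adjusted p of 1.0 at each dose, and the D2 change was -0.11 without mouse 12.

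Mt2 in lung stood at -3.11, -3.24 and -2.97 at D1, at -3.15, 0.34, -3.0 and -3.68 at D2 and at -3.34, -2.96, -3.08 and -2.90 at D3. All mice but mouse 12 lay within 1 log2 unit of each other, and the groups overlapped. The changes were 0.06 (SE 0.66), 0.79 (SE 0.61) and 0.10 (SE 0.61), with limma adjusted p of 1.0, 1.0 and 0.99, and the D2 change was -0.11 without mouse 12.

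**Figure D2:**
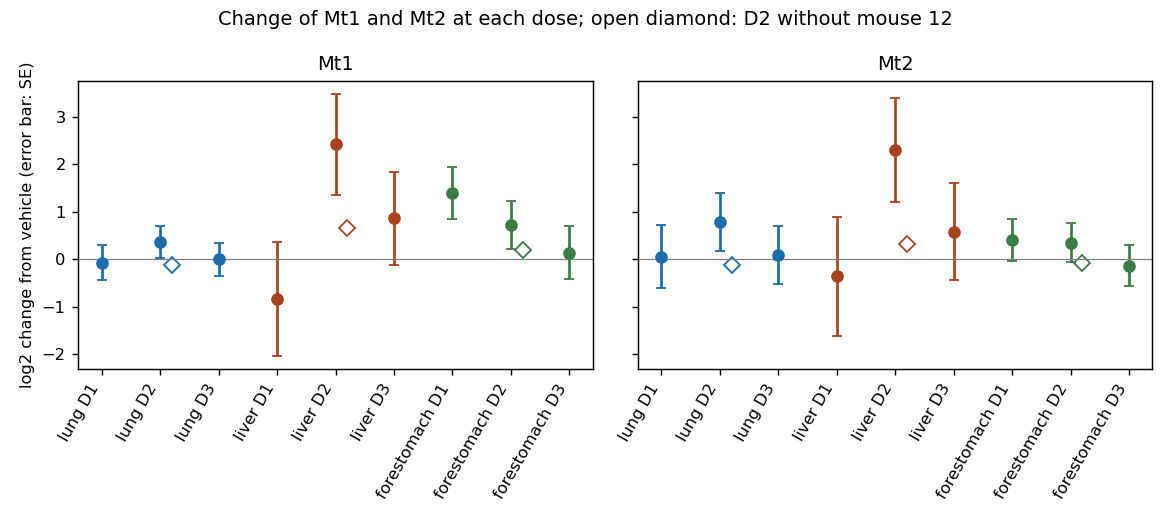
Change of Mt1 (left) and Mt2 (right) from the vehicle group at each dose on the log2 scale, in lung, liver and forestomach. Points are differences of group means with the SE from limma, and open diamonds are the D2 difference without mouse 12. The 2.42 and 2.30 of liver at D2 fall to 0.67 and 0.33 without that mouse.

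Mt4 was tested in forestomach and lung. In forestomach it stood at 5.01, 5.17 and 6.54 in D1 mice 7, 8 and 9, at 6.62, 5.64, 5.86 and 6.66 in D2 mice 11, 12, 13 and 15, and at 7.04, 5.93 and 2.35 in D3 mice 16, 17 and 20. Of the 10 treated forestomachs 6 were below all vehicle mice and 1 was above. The squamous marker mean moved with these values: in 5 of the 6 (mice 7, 8, 12, 13 and 17) it was 3.34 to 3.91, below the 4.05 to 4.56 of the vehicle forestomachs, and their glandular mean was 4.87 to 5.91. Glandular means as high, 5.56 to 6.05, were found in vehicle mice 2 and 3, D1 mouse 9 and D2 mouse 15, whose Mt4 of 6.54 to 6.90 was within the vehicle range. The third D1 mouse, mouse 9, was also below the vehicle squamous range, at 3.92, and the sixth low Mt4 value, of mouse 20, came with a squamous mean of 4.22. The part of tissue make-up in the Mt4 values was not tested. The changes were -1.11 (SE 0.81), -0.48 (SE 0.75) and -1.57 (SE 0.81) with limma adjusted p of 0.58, 0.92 and 1.0. The low D3 value of mouse 20 came from a dim spot, with median intensities of 168.5 in the sample channel and 30 in the reference channel, where the local reference background was 29. It was the only forestomach spot of Mt4 whose reference channel was not well above background, so no settled ratio can be given for it. With the ratios of the scanner software, which also divide by that channel, it stood at 7.30 and the D3 change was -0.12 (SE 0.27).

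In lung Mt4 was near background in 14 of 15 mice, at -0.70 to -0.17, and stood at 5.47 in D2 mouse 12. The sample-channel intensity of that spot was 7150, against 66 to 122 in the other lungs, and its reference channel read 226.5 against 58 to 101. The D2 change of 1.30 (SE 0.97, limma adjusted p 1.0) was -0.21 without mouse 12. The squamous marker mean of the same lung, 3.57, was within the range of the forestomachs. Of the 5 squamous markers tested in lung, 4 were above every other lung and 1, Trp63, was below, at -0.10 against 0.09 to 0.66. The part of squamous tissue in the Mt4 value was not tested. In liver no mouse was above 0.39.

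**Figure D3:**
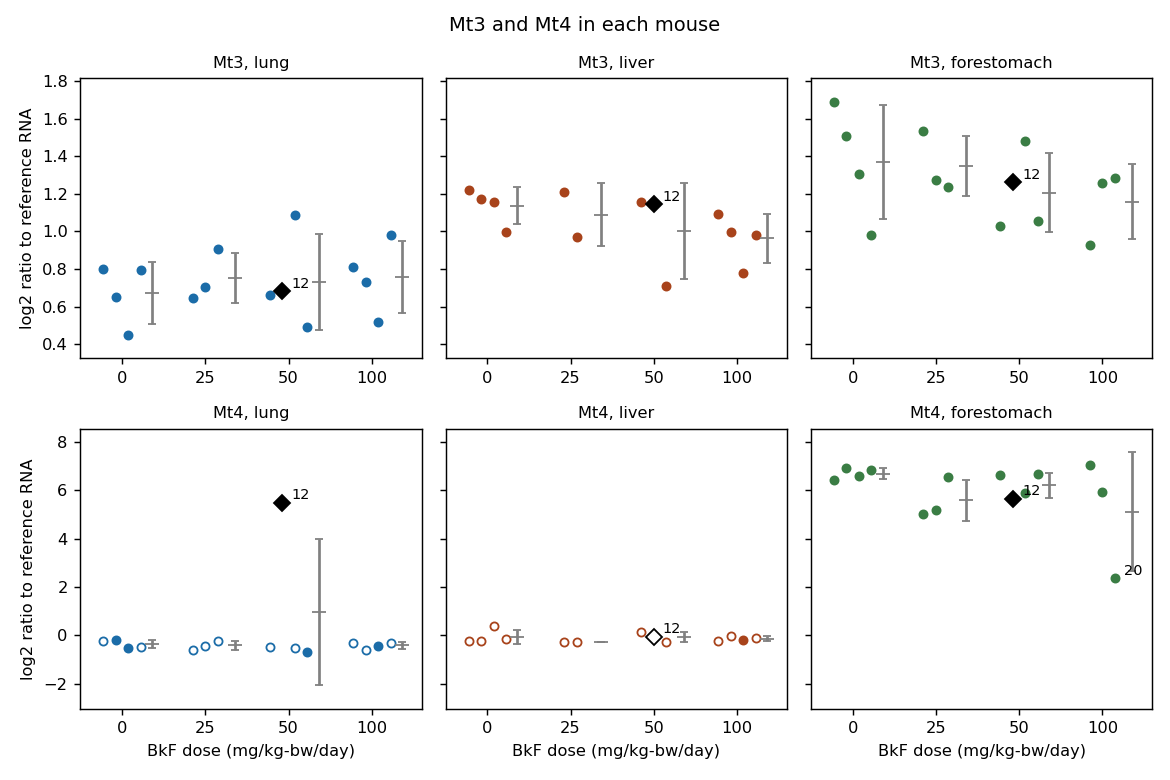
Log2 ratio of Mt3 (top) and Mt4 (bottom) over the reference RNA in each mouse by BkF dose, in lung, liver and forestomach, with the group mean and SD in grey. Open symbols mark arrays on which the sample channel was not well above background, the diamond is D2 mouse 12, and the 2 rows have different scales. Mt3 stays between 0.45 and 1.69, while Mt4 is high in forestomach and in the lung of mouse 12 alone.

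**Figure D4:**
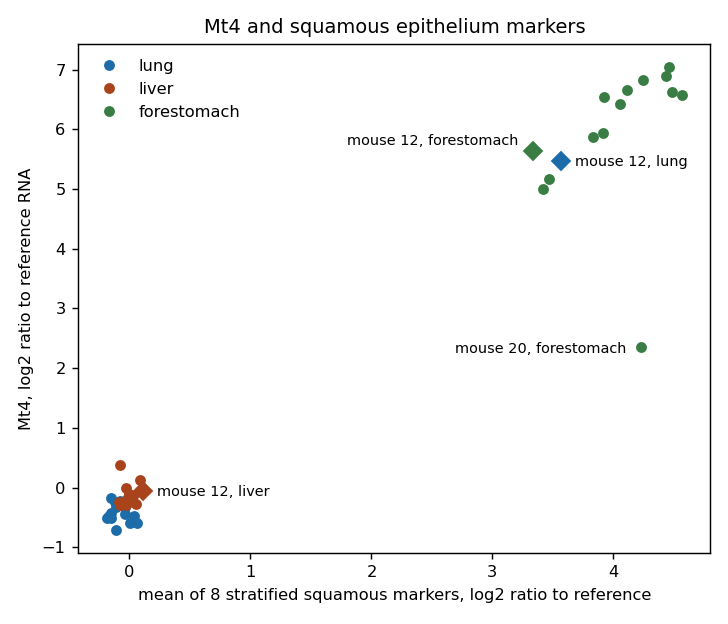
Mt4 against the mean of 8 stratified squamous markers on the 42 arrays, both as log2 ratios to the reference RNA. Each point is 1 array and diamonds are those of mouse 12. Its lung, at 3.57 and 5.47, lies among the forestomachs, and the forestomach of mouse 20, at 2.35 for Mt4, lies below them.

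Mt3 was not called at any dose or in the trend of any tissue. Its changes lay between 0.06 and 0.09 in lung, between -0.17 and -0.05 in liver and between -0.21 and -0.02 in forestomach over the 3 doses, with the lowest limma adjusted p at 0.75. The mean log2 ratio was 1.14, 1.09, 1.00 and 0.96 from D0 to D3 in liver and 1.37, 1.35, 1.21 and 1.16 in forestomach, lower at each higher dose. At D3, 3 of 4 livers were below the lowest vehicle liver, which stood at 0.9965. Mouse 19 was at 0.7781, but mouse 20 at 0.9833 and mouse 17 at 0.9956 were almost level with it. The share of all probes with such a split or with falling means was not counted. Neither trend was called, with limma adjusted p of 0.67 in liver and 1.0 in forestomach. In mouse 12 it stood at 0.68 in lung, 1.14 in liver and 1.26 in forestomach, within the range of the other mice in each tissue.

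D2 mouse 12 had the highest Mt1 and the highest Mt2 in all 3 of its tissues. In liver its log2 ratio exceeded the median of the other 12 mice by 5.71 for Mt1 and by 6.30 for Mt2. In lung the excess over the other 14 was 1.91 and 3.46, and in forestomach that over the other 13 was 1.97 and 1.59. These are the values of 1 animal, with no replicate. Its lung is the one with the high skeletal muscle, squamous and brown fat means, and their part in its lung Mt1 and Mt2 was not tested. Its forestomach had a glandular stomach mean of 5.77 and a squamous mean of 3.34, against 3.42 to 4.56 in the other forestomachs. The part of that make-up in its forestomach Mt1 and Mt2 was not tested either. Of all tested probes, mouse 12 was also above every other array on 18.2% in lung, 12.6% in liver and 7.69% in forestomach, and below every other array on 19.6%, 14.2% and 9.37%.

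Skeletal muscle markers, high in the lung of mouse 12, were low in its liver. Its squamous marker mean was 0.11, the highest of the livers by a small margin (-0.09 to 0.08 in the others), with 3 of 8 markers well above background against up to 5 in the others. Of the 6 squamous markers tested in liver, 2 were above every other liver, Krt14 at -0.35 against -1.51 to -0.82 and Trp63 at 0.83 against 0.16 to 0.80. Its brown fat mean was 0.31, below the 0.99 to 1.64 of the others, with Cidea above them at 2.01 against 0.02 to 1.47 and Elovl3 below them at 0.09 against 4.09 to 5.73. Its skeletal muscle mean was -0.72, with 1 of 8 markers well above background, and its liver marker mean of 7.75 was within the 7.47 to 8.20 of the others. The sample-channel intensity was 221805 for Mt1, against 2989 to 39906 in the other livers, and 199370 for Mt2, against 2351 to 14250. The reference channel was lower on these spots, at 58265 against 120482 to 143142 for Mt1 and 43506 against 71970 to 83528 for Mt2, so part of the ratio lies there. Against the 2 vehicle livers on its own slide, mouse 12 was higher by 6.0 for Mt1 and 6.32 for Mt2.

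Genes that act with the metallothioneins were read in the same tissues. Mtf1, the metal-responsive activator, and Slc30a1, a zinc exporter that Mtf1 switches on, were not called at any dose in any tissue. In the liver of mouse 12, Mtf1 stood at 0.66 and Slc30a1 at 1.92, within the 0.17 to 1.22 and 1.21 to 2.16 of the other livers. Of the 5 tested genes of a metal response list (Mtf1, Slc30a1, Slc39a10, Gclc, Hmox1), 0 were above and 1, Gclc of glutathione synthesis, was below every other liver (1.86 against 2.57 to 3.16). In its forestomach 0 of 5 were above and 1, the haem-degrading Hmox1, was below. In its lung, where Slc30a2 was tested too, 1 of 6 was above, again Hmox1, and 0 were below. Gclc and Hmox1 are named because these counts are small. Of all tested probes, mouse 12 was above every other liver on 12.6% and below on 14.2%, so a gene outside the range of the others was common. Of 13 zinc importers 3 were above and 1 was below every other liver, of 7 zinc exporters 1 was above and 2 were below, and of 9 copper handling genes 1 was above and 3 were below. The importer Slc39a14 stood at 2.50 against 1.34 to 2.19, the exporter Slc30a10 at 2.06 against 2.70 to 3.92, and Cp, the copper-carrying plasma protein ceruloplasmin, at 4.8 against 2.72 to 3.20, all 3 named after their values were seen. The same lists had 2 above and 3 below of 12, 2 above and 1 below of 7 and 3 above and 2 below of 9 in lung, and 2 above and 0 below of 11, 0 above and 0 below of 6 and 2 above and 0 below of 8 in forestomach. The shares of all tested probes above and below were 18.2% and 19.6% in lung and 7.69% and 9.37% in forestomach.

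The glucocorticoid receptor gene Nr3c1 was below every other liver in mouse 12, at -0.63 against -0.58 to -0.18, and was not called at any dose. Of a list of 10 genes that holds the receptor and its targets, 3 were above every other liver and 1 below, 4 were above and 0 below in forestomach, and 2 were above and 1 below in lung. Of all tested probes, 12.6% were above and 14.2% below in liver, 7.69% and 9.37% in forestomach and 18.2% and 19.6% in lung. Fkbp5, a chaperone that dampens the receptor and is itself induced by it, was chosen for naming after its values were seen. It stood at 2.12 in the liver of mouse 12 against -0.91 to 0.21 in the others, at 1.51 against -0.61 to 0.44 in forestomach and at 1.87 against -1.67 to -0.66 in lung, above every other mouse in each. Per1, a clock gene that the receptor also induces, was chosen in the same way and stood at 0.29 against -2.46 to -0.47 in liver and at 0.80 against -1.46 to 0.03 in forestomach, but within the range of the others in lung, at 1.39 against -0.43 to 1.67. Of 10 tested acute phase protein genes 1 was above and 2 were below every other liver, of 9 in forestomach 0 were above and 0 below, and of 7 in lung 4 were above and 1 below.

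Over the doses, no gene of the metal response, zinc exporter, zinc importer, copper handling or glucocorticoid target lists was called in any tissue. The median change of the 5 or 6 tested metal response genes lay between -0.15 and 0.06 over the 9 comparisons, and that of the 6 or 7 zinc exporters, 2 of which are also on the first list, between -0.16 and 0.12. For the 11 to 13 zinc importers it lay between -0.08 and 0.33, for the 8 or 9 copper handling genes between -0.10 and 0.09, and for the 10 glucocorticoid genes between -0.35 and 0.25. The median over all tested probes lay between -0.015 and 0.015. The metal response median covers members that went both ways. In forestomach at D1, Hmox1 differed by -2.03 (SE 0.52, limma adjusted p 0.26), Slc30a1 by -0.76 (SE 0.24, limma adjusted p 0.28) and Gclc by 1.01 (SE 0.33, limma adjusted p 0.30), none of which was called. All 3 D1 forestomachs held glandular stomach RNA, against 2 of the 4 vehicle ones, and its part in these differences was not tested.

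Whether Mt1 and Mt2 moved together was asked over mice within each tissue, and whether a mouse that was high in 1 tissue was high in another was asked for each gene between tissues, 9 relations in all. Within a tissue Mt1 and Mt2 rose and fell together. Pearson's r was 0.976 in lung (n = 15, permutation p 1e-05, the smallest that 100000 permutations can give, adjusted 9e-05), 0.965 in liver (n = 13, permutation p 8e-05, adjusted 0.00036) and 0.806 in forestomach (n = 14, permutation p 0.00025, adjusted 0.00075). Spearman's rho was 0.893, 0.747 and 0.745 with permutation p of 5e-05, 0.00479 and 0.0033, adjusted 0.00045, 0.0144 and 0.0144. Without mouse 12, r was 0.827, 0.891 and 0.695 (adjusted permutation p 0.00198, 0.00522 and 0.0177). Without the 2 mice farthest from the median, r was 0.848 in lung (adjusted permutation p 0.00324), but 0.639 in liver and 0.600 in forestomach, each with an adjusted permutation p of 0.0794, so those relations rest in part on mice 12 and 17 and on mice 12 and 16. The forestomach of mouse 16, lowest for Mt1, is the one with the high white fat mean.

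**Figure D5:**
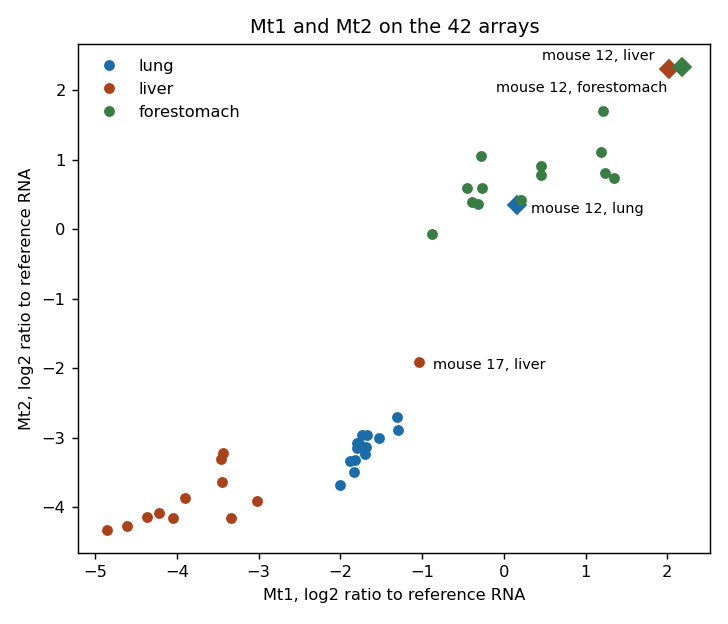
Mt2 against Mt1 on the 42 arrays, as log2 ratios to the reference RNA, with 1 point per array. Diamonds are the 3 tissues of mouse 12, and the liver of mouse 17 is named. The liver of mouse 12 lies beside its forestomach, far from the other livers.

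Between tissues, r depended on mouse 12 and on whether dose group means were removed. For Mt1, Pearson's r was 0.827 between lung and liver (n = 13, permutation p 0.0223, adjusted 0.0401), 0.488 between lung and forestomach (n = 14, permutation p 0.0623, adjusted 0.070) and 0.523 between liver and forestomach (n = 12, permutation p 0.070, adjusted 0.070). For Mt2 it was 0.909, 0.724 and 0.672 in the same order (permutation p 0.0399, 0.0211 and 0.0412, adjusted 0.053, 0.0401 and 0.053). Spearman's rho lay between -0.011 and 0.484 over these 6 relations, with adjusted permutation p of 0.222 or more. Without mouse 12 all 6 values of r lay between -0.129 and 0.165, with an adjusted permutation p of 0.997 each. With each dose group's mean removed and mouse 12 kept, r was 0.648 to 0.891 and passed for all 6. Spearman's rho then passed for 4, at 0.670 for Mt1 between lung and liver, 0.825 for Mt1 between liver and forestomach, 0.600 for Mt2 between lung and forestomach and 0.769 for Mt2 between liver and forestomach (adjusted permutation p 0.0219, 0.00495, 0.0337 and 0.00889). The D2 mean removed there includes mouse 12 and lowers the other D2 mice in every tissue, so these rho still depend on that mouse. With dose means removed and mouse 12 left out, no rho of the 6 passed (adjusted permutation p 0.216 or more). With dose means removed and mouse 12 left out, a setting chosen after seeing the data, 1 of the 6 passed, Mt1 between liver and forestomach (r = 0.774, n = 11, adjusted permutation p 0.0294), for which rho was 0.618 (adjusted permutation p 0.216). The sign of that relation is not settled, since without mice 12 and 17, and with dose means kept, r was -0.757 (n = 10, adjusted permutation p 0.049). The other 5 values of r lay between -0.097 and 0.426, with adjusted permutation p of 0.351 or more.

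Genes other than the metallothioneins were ranked by their r with Mt1, so Mt2, at 0.965 in liver and 0.976 in lung, is not among them. The genes whose pattern was then most like that of Mt1 over the mice of a tissue were, in liver (n = 13), Gpx2 (r = 0.960), a glutathione peroxidase, Akr1b7 (r = 0.959), an aldo-keto reductase, Col1a2 (r = 0.952), a collagen chain, Mmp2 (r = 0.951), a matrix metalloproteinase, and Ly6d (r = 0.948), a surface antigen. Each was above all other livers in mouse 12, Gpx2 at 4.35 against -0.20 to 2.40 and Akr1b7 at 3.96 against -0.45 to 1.19. In lung (n = 15) they were Lce1i, Stac3, Bglap3, Gm12070 and Actn3, with r of 0.963 to 0.973. Lce1i belongs to the cornified envelope of the skin and Stac3 and Actn3 to skeletal muscle, and mouse 12 was above all other lungs for each of the 5. In forestomach (n = 14) they included Zfp64, Creb3l1, Cdk18 and Bcl3, with r of 0.963 to 0.975, and mouse 12 was again the highest for each of these 4. For Mt4 in forestomach they were Pcsk1n, Lyrm1, Fbxw21, Tbccd1 and Itga8, with r of only 0.740 to 0.794. With the metallothioneins left out, these r were the highest of 14204, 14917 and 13352 genes in liver, lung and forestomach and are given as a description.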

How the data were processed

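Arrays were two-colour Agilent mouse arrays with tissue RNA in Cy5 and reference RNA in Cy3, without dye swap. The authors deposited scanner files with median intensity per channel, a log10 ratio and flags. Per the file headers, liver arrays were read with Feature Extraction 11.0.1.1 and the others with 10.7.3.1. They also deposited log2 ratios after LOWESS without background subtraction. Their liver columns did not follow the scanner values under the same probe identifiers and were not used.

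Here log2 ratios of the medians, without background subtraction, were loess-normalised within each array (limma 3.58.1 in R 4.3.3). Control and outlier spots were left out. Tested probes (32697 in lung, 30460 in liver, 25305 in forestomach) were well above background in the sample channel on at least 3, 2 and 3 arrays. Scanner files carry accessions, and 26413 of 55681 probes received a symbol through RefSeq (GRCm38.p6). Linear models with moderated variances (limma's lmFit and eBayes) were fitted per tissue with all dose groups, or over all 42 arrays for tissue contrasts (37646 probes), in place of the published MAANOVA test, with Benjamini-Hochberg adjustment over all probes. The script was tested on simulated data. Sample-channel values were normalised by loess and then Aquantile. Marker and pathway genes use the probe with the highest mean intensity. Genes most like a member were the 5 with the highest Pearson's r, of which 1 in forestomach is not reported here. Mouse numbers in the labels pair the tissues of an animal. Deviations of the same vehicle mouse from the group means correlated at -0.043 to 0.373 between tissues. All p-values are two-sided. The members and lists were chosen with earlier results of these data known, and the acute phase list after single values were seen. The number of arrays limits the precision.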

Additional observations from a re-analysis of the deposited data

Results flagged for a closer look

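Of 26 groups of 4 mice and a member that were examined, 3 held a mouse set apart from the other 3 by a gap above the 95% critical value of Dixon's test. Chance flags about 1 in 20 groups. Mt1 in vehicle forestomach stood at 0.448 in mouse 3 against -0.385 to -0.275 in the others. That forestomach had a glandular stomach mean of 5.68 and a liver marker mean of 3.29, against 0.60 and 0.42 in mouse 1, 0.94 and 0.19 in mouse 4 and 5.67 and 3.77 in mouse 2, and their part in the value was not tested. Mt2 in D2 lung stood at 0.343 in mouse 12 against -3.681 to -3.001, and Mt4 in D2 lung at 5.472 in mouse 12 against -0.703 to -0.467. The lung of mouse 12 is the one with the skeletal muscle and squamous marker values given in the report, and their part in these values was not tested. Its liver, where Mt1 and Mt2 were farthest from the other mice, belonged to a group of 3 and was not examined in this way.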

How the results depend on the processing

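No dose comparison or trend called a member under any setting run, except that Mt1 in forestomach at D1 was called in the fit on the compared groups alone (1 member). The deposited log2 ratios could not be used for liver. With the mouse as a replicate block (consensus correlation 0.0594) the vehicle comparisons kept their counts of 1, 3 and 3 members called and no call changed. Of single-gene changes, 19 planned and 2 added results turned sign, all in uncalled differences. The sign turned for Mt2 in lung at D1 with the slide as a block (-0.11) and with the scanner software's ratios (-0.012), for Mt1 in lung at D3 with those ratios (0.0019), for Mt1 in forestomach at D3 with the slide as a block (-0.36), and for Mt3 between vehicle liver and forestomach with those ratios (0.22). In the sample channel alone, a setting added after seeing the data, Mt3 and Mt4 between vehicle lung and liver turned to 0.074 and 0.13, and Mt3 between vehicle liver and forestomach passed (-0.68). The scanner software's ratios also let Mt3 between vehicle lung and liver pass (-1.21), and the deposited ratios Mt1 between vehicle lung and forestomach (-1.39). In each case the cause was not tested.

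Leaving out 1 mouse at a time, Mt1 in lung ranged from -0.13 to 0.048 at D1, from -0.11 to 0.60 at D2 and from -0.12 to 0.12 at D3, and Mt2 in lung from -0.051 to 0.21, from -0.11 to 1.23 and from -0.014 to 0.25. Mt4 in lung at D2 ranged from -0.21 to 1.85, Mt2 in forestomach from -0.081 to 0.56 at D2 and from -0.41 to 0.18 at D3, and Mt1 in forestomach at D3 from -0.45 to 0.59. In liver at D3, Mt1 ranged from 0.19 to 1.30 and Mt2 from 0.098 to 0.85, the lowest without mouse 17.

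The 6 correlations between tissues moved most. Without mouse 12, Pearson's r for Mt1 was 0.135 between lung and liver, -0.129 between lung and forestomach and -0.018 between liver and forestomach, and for Mt2 -0.015, 0.165 and -0.001. Without the 2 mice farthest from the median they were 0.095, -0.008 and -0.757 for Mt1 (adjusted permutation p 0.049 for the last, over 10 mice without mice 12 and 17) and -0.057, 0.236 and -0.480 for Mt2. Within tissues they were 0.639 in liver and 0.600 in forestomach. With dose group means removed, r passed for Mt1 between lung and forestomach (0.648) and between liver and forestomach (0.890), and for Mt2 between lung and liver (0.891) and between liver and forestomach (0.814). With dose means removed and mouse 12 left out, Mt1 with Mt2 in forestomach was 0.609 and no longer passed, and between tissues the values for Mt1 were 0.108, -0.059 and 0.774, of which the last passed, and for Mt2 between lung and liver -0.097 and between lung and forestomach 0.152. With slide means removed, the Mt2 values were 0.865 and 0.593 for the last pair. With the scanner software's ratios Mt2 between lung and forestomach no longer passed (0.660).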
